A study of Mus musculus with 16 samples.

Results

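A set of 30 genes of cholesterol and fatty acid synthesis was followed through the RNA pools of mouse hepatocytes. They were chosen by name: 17 enzymes of the sterol pathway from Hmgcs1 to Dhcr7, 4 genes that control or move sterols (Srebf1, Srebf2, Insig1 and Stard4), and 9 genes of fatty acid and triglyceride synthesis (Acly, Acaca, Fasn, Scd1, Elovl6, Me1, Acss2, Gpam and Thrsp). They are 30 of the 48158 genes for which transcript values were summed, and all 30 were among the 11790 genes that passed the filter on low values.

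The hepatocytes came from FVB mice. Chow-fed mice were compared with mice fed for 4 weeks with DDC, a porphyrin-inducing compound given in the diet to injure bile ducts and liver, and cycloheximide, which holds ribosomes on their messages, was present at isolation in both diets. Polyadenylated RNA was measured in 4 pools, cytoplasm, monosomes (1 ribosome), light polysomes (2 to 4 ribosomes) and heavy polysomes (more than 5 ribosomes), with 2 libraries in each of the 8 groups. The chow gradient libraries came from preparations named CH1_CH2 and CH3_CH4 and the chow cytoplasmic libraries from CH1 and CH3. The DDC gradient libraries came from preparations B and C and the DDC cytoplasmic libraries from C2 and D2. No label ties a library to animals of its own, so the p-values measure only the spread between these samples. That spread may be technical between the DDC libraries. The chow libraries numbered 1 and 2 differed in sex-linked messages, given below, so their spread is not technical alone.

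Cells build cholesterol from acetyl-CoA by way of mevalonate, squalene and lanosterol, and fatty acids from the same acetyl-CoA by way of malonyl-CoA. The membrane-bound transcription factors SREBP-2 and SREBP-1c, encoded by Srebf2 and Srebf1, drive the genes of the sterol arm and of the fatty acid arm, and Insig proteins hold them in the endoplasmic reticulum when sterols are plentiful. The liver is a main site of both pathways, and in rodents hepatic lipogenesis also answers to insulin, carbohydrate and thyroid hormone.

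Gene coordinates are GRCm38. The values are FPKM, fragment counts scaled by transcript length and library size, summed over the transcripts of a gene. Changes are differences of log2(FPKM + 1), a scale on which fold changes of weakly expressed genes look smaller than they are. A gene is said to rise or fall where its limma test had a Benjamini-Hochberg adjusted p under 0.05 over all genes tested. Summed FPKM ran from 375145 to 1386166 per library, and the sequenced depth cannot be read from these values.

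The libraries did not all carry the same sex-linked messages. In the 4 chow libraries with the number 1, Xist was at 0.0394 to 2.44 FPKM and the Y-linked genes Ddx3y, Eif2s3y, Kdm5d and Uty were at 0, while Xist was at 0 in the other 12 libraries and Eif2s3y was at 4.20 to 34.5 FPKM there. All DDC libraries thus matched the chow libraries numbered 2 in these messages, and the part of sex in the changes with diet was not tested. Counts of members that changed with diet are therefore given with all libraries and without the 4 chow libraries numbered 1. The summed level of 8 hepatocyte markers was 30592 to 36444 FPKM in chow cytoplasm and 18985 to 32184 in DDC cytoplasm. Of the 7 tested there, 1 was called lower and none higher. On heavy polysomes the sums were 31956 to 35101 in chow and 49814 to 96676 in DDC, with Apoa1, Apoa2 and Serpina1a listed at 0 in chow. Apoa2 alone was at 80567 and 38461 FPKM in DDC there, so the sums of the 2 diets do not hold the same markers. Ttr was at 30288 and 33760 in chow and 12405 and 8473 in DDC. Of the 5 markers tested on heavy polysomes, 1 was called lower and none higher. From 1 to 3 of the 8, depending on the pool, were listed at 0 in chow. Markers of several other cell types rose with DDC: 4 of 6 macrophage markers were called in cytoplasm, where their summed level was 51.2 to 67.0 FPKM in chow and 351 to 521 in DDC, and 6 of 6 on heavy polysomes, at 122 to 227 and 2340 to 3121. The 6 cholangiocyte markers summed to 0.827 to 0.978 FPKM in chow cytoplasm, with Epcam and Cftr at 0, and to 71.1 to 108 in DDC. The 3 of them that were tested (Epcam, Spp1 and Sox9) were under 1 FPKM in every chow library and passed the filter only through DDC, as did the macrophage marker Adgre1 and the fibroblast marker Col1a1, so their calls carry no weight. Of 6 stellate and fibroblast markers 4 were called higher in DDC cytoplasm (24.3 to 38.7 FPKM summed in chow and 115 to 135 in DDC). For the 4 adipocyte markers the sum was 0.824 to 1.55 FPKM in chow cytoplasm and 5.98 to 11.3 in DDC. Fabp4 made up all of the DDC sum and was the 1 marker tested, and it was called. Adipoq, Plin1 and Lep were at 0 in both DDC cytoplasm libraries. None of 4 endothelial markers was called in cytoplasm. The part of these cells in the results was not tested, and in bulk RNA fewer cells of a type and less RNA per cell cannot be told apart.

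Most promoters of the members held one short element. SREBP acts at promoters together with the CCAAT-binding factor NF-Y, and RefSeq promoters (GRCm38.p6, 250 bases before to 50 bases after the start) were matched for 25 of the 30 members. A gene with several promoters, such as Dhcr7 or Srebf1, counts once and holds a motif when any of its promoters does. CCAAT, on either strand, was present in 23 of the 25 members and in 41.1% of all 27025 genes with a promoter in the same table. All 14 sterol enzymes and all 3 regulators with a promoter held it, as did 6 of 8 members of the fatty acid arm. The windows of Acaca and Elovl6 did not hold these letters. The RefSeq start used for Acaca lies downstream of the start of the gene in GENCODE, so that window need not be its main promoter. The same limit holds for Me1, Dhcr7 and Tm7sf2, which are counted as holding CCAAT. Their windows with the element lie wholly downstream of the GENCODE start. The sterol-response motif TCACNCCAC was found in 1 member, Hmgcs1, and in 1.44% of all genes. The E-box CACGTG was found in 4 members, Hsd17b7, Sc5d, Dhcr7 and Insig1, and in 8.09% of all genes. A match describes the letters in this window and is not evidence that a factor binds.

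The upstream windows of 8 promoters are shown. They were picked, with the values known, from members with a single RefSeq promoter, to cover early and late sterol enzymes and members of the fatty acid arm that rose (Fasn, Elovl6) and fell (Thrsp). The windows are 150 bases long and are printed in the direction of transcription: Hmgcs1 at chr13:119690201-119690350 (plus strand), Mvk at chr5:114444119-114444268 (plus), Cyp51 at chr5:4104698-4104847 (minus), Msmo1 at chr8:64733579-64733728 (minus), Nsdhl at chrX:72918371-72918520 (plus), Fasn at chr11:120824548-120824697 (minus), Thrsp at chr7:97417551-97417700 (minus) and Elovl6 at chr3:129532236-129532385 (plus). Capitals mark CCAAT, its reverse complement ATTGG, and in Hmgcs1 the match to TCACNCCAC.
Hmgcs1: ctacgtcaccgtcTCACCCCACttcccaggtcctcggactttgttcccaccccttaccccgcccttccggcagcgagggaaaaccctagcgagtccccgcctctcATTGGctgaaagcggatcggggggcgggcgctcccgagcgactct
Mvk: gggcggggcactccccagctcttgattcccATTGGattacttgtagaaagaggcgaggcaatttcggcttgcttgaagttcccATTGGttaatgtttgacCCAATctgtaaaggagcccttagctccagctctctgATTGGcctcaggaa
Cyp51: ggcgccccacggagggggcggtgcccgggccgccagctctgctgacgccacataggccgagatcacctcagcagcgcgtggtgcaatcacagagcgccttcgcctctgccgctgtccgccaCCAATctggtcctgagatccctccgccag
Msmo1: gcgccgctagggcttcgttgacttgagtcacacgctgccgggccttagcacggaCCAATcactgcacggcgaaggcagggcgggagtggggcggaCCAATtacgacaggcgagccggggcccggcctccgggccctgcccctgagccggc
Nsdhl: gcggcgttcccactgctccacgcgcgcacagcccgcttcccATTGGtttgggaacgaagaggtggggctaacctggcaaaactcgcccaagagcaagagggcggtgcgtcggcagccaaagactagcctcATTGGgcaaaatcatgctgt
Fasn: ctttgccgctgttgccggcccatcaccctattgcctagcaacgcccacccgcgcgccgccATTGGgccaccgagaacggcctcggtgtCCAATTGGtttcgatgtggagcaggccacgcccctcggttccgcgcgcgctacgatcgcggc
Thrsp: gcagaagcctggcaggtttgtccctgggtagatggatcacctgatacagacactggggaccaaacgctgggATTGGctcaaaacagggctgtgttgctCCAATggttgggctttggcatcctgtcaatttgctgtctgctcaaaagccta
Elovl6: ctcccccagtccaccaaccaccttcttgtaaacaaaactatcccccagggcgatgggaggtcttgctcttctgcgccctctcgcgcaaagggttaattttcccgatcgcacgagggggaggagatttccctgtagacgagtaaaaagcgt
Mvk held 4 copies of the element in its window, of which 3 read ATTGG. The Fasn window held 3, of which a pair overlapped, and Nsdhl, Msmo1 and Thrsp held 2 each. Cyp51 and Hmgcs1 had 1 each, and Elovl6, shown for contrast, had none. The windows of Nsdhl, a gene that rose, and of Thrsp, a gene that fell, were alike in this count.

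In cytoplasmic RNA the sterol arm was higher in DDC: 8 of 17 enzymes rose and none fell, against 12.7% of all genes tested called higher and 9.68% called lower. The median change of the 17 was 1.00 on the log2 scale, against 0.01 over all genes, and 14 of 17 had a positive value. Genes from the start of the pathway (Mvk, Pmvk, Fdps), its first committed step (Fdft1) and its conversion of lanosterol (Cyp51, Msmo1, Nsdhl, Dhcr7) were those that rose. Without the 4 chow libraries numbered 1, 5 of 17 rose and none fell, with 4.69% and 3.56% of all genes called.

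Nsdhl (chrX:72918557-72958514), which removes methyl groups from the sterol ring together with Msmo1, was at 14.7 and 10.9 FPKM in chow cytoplasm and at 52.4 and 44.0 in DDC. Both DDC libraries were above both chow libraries, and the change was 1.84 ± 0.34 (SE; adjusted p = 0.00278). This call held under every alternative and with any one cytoplasmic library left out. Dhcr7 (chr7:143823145-143848410), which makes cholesterol from its last precursor, stood at 19.7 and 20.5 FPKM in chow and 95.3 and 74.9 in DDC, a change of 2.02 ± 0.44 (adjusted p = 0.00741). The chow libraries nearly coincided, so the choice of chow library hardly mattered to its size (2.04 against library 1 alone, 1.99 against library 2 alone).

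Cyp51 (chr5:4081145-4104746), the lanosterol demethylase, was at 28.4 and 18.9 FPKM in chow and 79.5 and 53.9 in DDC, and rose by 1.46 ± 0.34 (adjusted p = 0.00993). Mvk (chr5:114444269-114460591), the kinase of mevalonate, was at 7.68 and 6.51 FPKM in chow and 27.5 and 17.3 in DDC, and rose by 1.498 ± 0.35 (adjusted p = 0.0108). For both genes the groups did not overlap, and the DDC library numbered 1 was the higher one.

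Another 4 enzymes rose with smaller changes or weaker tests. Fdps, which makes farnesyl diphosphate, rose by 1.47 (75.5 and 61.4 FPKM in chow, 227 and 159.5 in DDC; adjusted p = 0.0124). Msmo1, the sterol methyl oxidase, rose by 0.98 (67.4 and 55.7, then 140.3 and 106; adjusted p = 0.0130). Fdft1, squalene synthase, rose by 1.00 (25.2 and 20.9, then 54.6 and 40.1; adjusted p = 0.0287). Pmvk, the kinase of phosphomevalonate, rose by 0.96 (39.8 and 29.9, then 75.1 and 62.0; adjusted p = 0.0497), just inside the threshold. Without the 4 chow libraries numbered 1, Mvk and Nsdhl kept their calls (adjusted p = 0.0423 and 0.0452) and the other 6 lost theirs, with adjusted p of 0.0753 to 0.126.

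The 9 sterol enzymes without a call in cytoplasm fell into groups of unlike size. Hmgcs1, Mvd and Sqle had changes of 1.42, 1.38 and 1.49 with standard errors of 0.65 to 0.86, and Lss, which closes the sterol rings, had 0.78 ± 0.29 (adjusted p = 0.0780). Idi1 and Ebp had 0.22 and 0.23. Tm7sf2, Hsd17b7 and Sc5d, which act on the ring after lanosterol, had -0.04, -0.10 and -0.08. The enzymes after lanosterol thus ranged from 2.02 for Dhcr7 to -0.10 for Hsd17b7.

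Hmgcs1, Mvd and Sqle missed the threshold with chow libraries that lay far apart. Hmgcs1 (chr13:119690379-119708260), the cytosolic HMG-CoA synthase, was at 94.6 and 25.9 FPKM in chow cytoplasm and 156 and 116 in DDC. Mvd, which makes isopentenyl diphosphate, was at 12.2 and 2.66 and then at 18.9 and 15.4. Sqle (chr15:59315077-59331192), the epoxidase that starts ring formation, was at 17.8 and 3.28 and then at 24.7 and 23.9. In each case both DDC libraries exceeded both chow libraries, but the chow library numbered 1 was nearer to the DDC level than to the other chow library.

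Against chow library 1 alone the cytoplasmic changes of Hmgcs1, Mvd and Sqle were 0.50, 0.45 and 0.43, and against chow library 2 alone they were 2.33, 2.30 and 2.56. Without the 4 chow libraries numbered 1 all 3 were called (adjusted p = 0.0215, 0.0159 and 0.0157). These 3 were also the members whose level in the chow library numbered 1 exceeded that numbered 2 by at least 0.9 (log2) in all 4 pools, as did 0.755% of all genes. More broadly, 16 of 17 sterol enzymes were higher in chow library 1 than in chow library 2 in cytoplasm, where 47% of all genes were. The same was true of 15 of 17 on light polysomes (51.8% of all genes), 14 of 17 on heavy polysomes (48.7%) and 9 of 17 on monosomes (46.8%). The median change of the sterol arm with DDC was 0.56 against chow 1 and 1.17 against chow 2 in cytoplasm, and 0.09 and 0.91 on heavy polysomes.

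**Figure D1:**
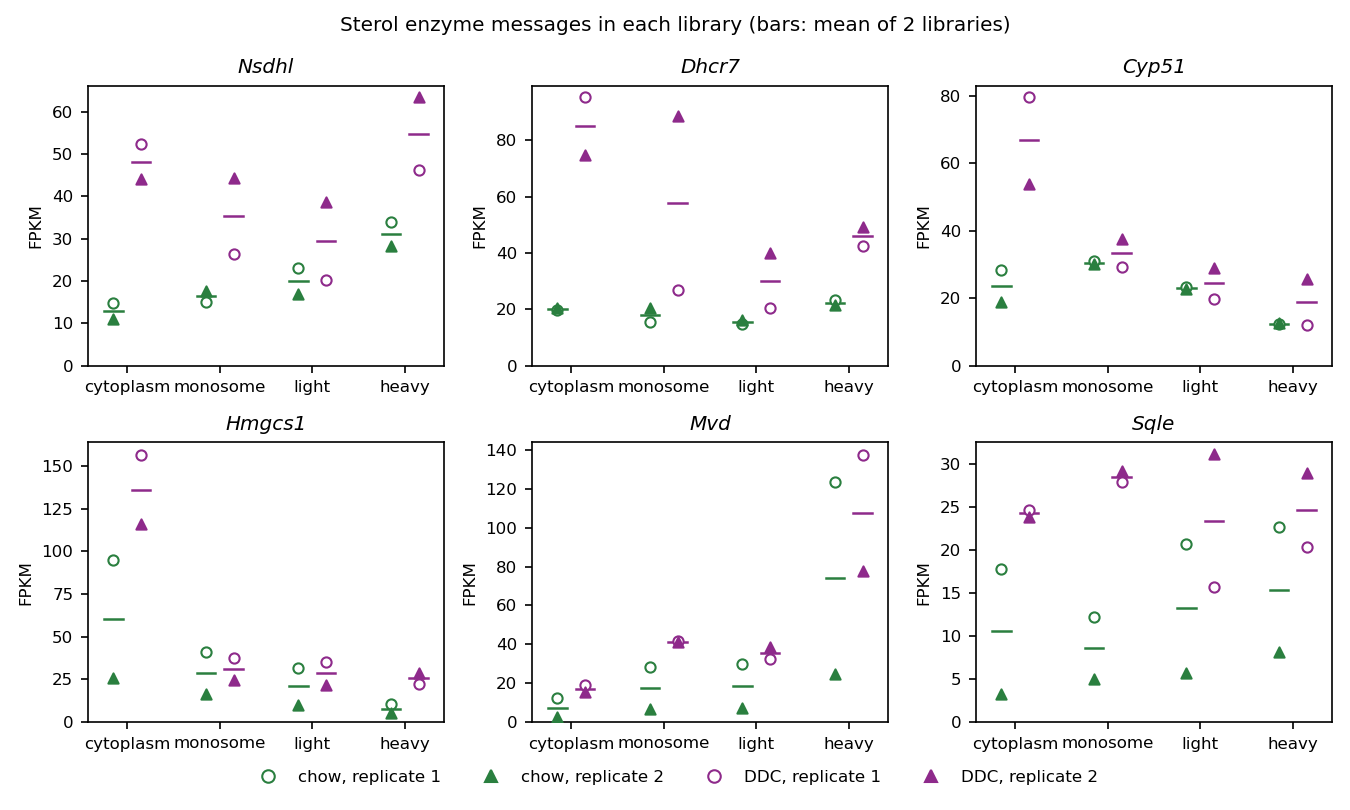
FPKM of 6 sterol enzymes in each library by RNA pool, with chow in green, DDC in purple, circles for replicate 1, triangles for replicate 2 and bars for the mean of 2 libraries. Nsdhl, Dhcr7 and Cyp51 show DDC cytoplasm above both chow libraries, and Hmgcs1, Mvd and Sqle show chow replicate 1 well above chow replicate 2 in every pool.

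The fatty acid arm was divided. In cytoplasm 3 of 9 members rose and none fell, with 12.7% of all genes called higher and 9.68% lower. The median change was 0.82, against 0.01 over all genes, and 7 of 9 values were positive. Those that rose were enzymes of chain synthesis and elongation, Acaca, Fasn and Elovl6. Leaving out the chow libraries numbered 1, 1 of 9 (Fasn) kept its call.

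Elovl6 (chr3:129532355-129638495), which lengthens palmitate to stearate, was at 6.96 and 3.85 FPKM in chow cytoplasm and 32.7 and 18.5 in DDC, a rise of 2.04 ± 0.44 (adjusted p = 0.00619). Acaca (chr11:84129672-84401651), the acetyl-CoA carboxylase that makes malonyl-CoA, was at 4.37 and 3.17 and then at 14.1 and 7.52, a rise of 1.26 ± 0.29 (adjusted p = 0.00929). Fasn (chr11:120805846-120824547), fatty acid synthase, was at 149.9 and 55.4 and then at 465 and 230.5, a rise of 1.83 ± 0.56 (adjusted p = 0.0341). No DDC library of these 3 genes overlapped with chow. Leaving out the 4 chow libraries numbered 1, the adjusted p was 0.0586 for Elovl6, 0.0731 for Acaca and 0.0357 for Fasn.

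The other 6 members of the arm were not called in cytoplasm. Scd1, the desaturase that makes oleate, was at 341 and 326 FPKM in chow and at 1683 and 889 in DDC, the highest DDC level of the 30 in that pool. Both DDC libraries were above chow, but with a standard error of 0.88 its change of 1.87 had an adjusted p of 0.156. Acly, which supplies acetyl-CoA from citrate, had a change of 0.82 (adjusted p = 0.186), Acss2, which makes it from acetate, 0.16, and Gpam, the first acyltransferase of triglyceride synthesis, 0.01. Me1, which supplies NADPH, had -0.52 and Thrsp, a lipogenic protein induced by thyroid hormone and carbohydrate, -1.22 (adjusted p = 0.101).

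Of the 4 regulators none rose and 1 fell in cytoplasm, with 12.7% of all genes called higher and 9.68% lower. Stard4 (chr18:33199355-33213862), a carrier of cholesterol between membranes and a known SREBP-2 target, was at 20.9 and 14.2 FPKM in chow and 8.70 and 7.15 in DDC, and fell by 1.04 on the log2 scale (SE 0.25; adjusted p = 0.0118). Insig1, whose gene also answers to SREBP, was at 101 and 50.7 FPKM in chow and 50.9 and 48.6 in DDC, with a change of -0.52 (adjusted p = 0.446). Its DDC libraries lay at the level of the lower chow library. Srebf1 and Srebf2 had changes of -0.40 and 0.43 (adjusted p = 0.546 and 0.383). The change of Stard4 with those 4 libraries left out was -0.77 and was not called (adjusted p = 0.185).

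Each fit without 1 cytoplasmic library called fewer of all genes, and the count of 12 members called in cytoplasm varied with the library left out. It was 3 without chow library 2, 2 without DDC library 1, 12 without chow library 1 and 9 without DDC library 2.

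On monosomes, the pool of messages that carry 1 ribosome, 6 of 17 sterol enzymes rose and none fell, with 21% of all genes called higher and 15.9% lower. The median change of the arm was 0.61 against 0.04 over all genes. Fdps rose by 1.81 ± 0.36, from 70.5 and 47.4 FPKM in chow to 167 and 250.6 in DDC (adjusted p = 0.00233). Mvk was at 16.9 and 20.7 and then at 53.2 and 53.1, a rise of 1.46 (adjusted p = 0.00746). Msmo1 (0.93, adjusted p = 0.0102), Lss (1.04, 0.0160), Dhcr7 (1.41, 0.0263) and Nsdhl (1.02, 0.0327) were the others that rose. The DDC libraries of Dhcr7 were unequal, with levels of 15.6 and 20.3 FPKM in chow and 26.9 and 88.6 in DDC. With the same 4 chow libraries left out, 4 of 17 were called, Mvk, Mvd, Fdps and Sqle, with 14.7% of all genes called higher.

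Srebf2, which encodes SREBP-2, rose on monosomes from 4.84 and 5.22 FPKM to 13.6 and 13.7 (1.28 ± 0.32, adjusted p = 0.00928) and on light polysomes from 3.67 and 2.41 to 8.63 and 7.56 (1.18 ± 0.32, adjusted p = 0.0165). Its replicate libraries were close together and the groups did not overlap. Stard4 fell in the same pools: on monosomes from 19.1 and 16.1 FPKM to 6.36 and 4.24 (-1.58 ± 0.25, adjusted p = 0.000606) and on light polysomes from 12.5 and 11.0 to 4.95 and 3.98 (-1.22 ± 0.25, adjusted p = 0.00345). On heavy polysomes its levels were 9.95 and 10.7 in chow and 6.35 and 5.34 in DDC, a change of -0.73 (adjusted p = 0.0509). Stard4 thus had a negative value with groups apart in all 4 pools, and was called in 3. Leaving out the chow libraries numbered 1, it was called on monosomes (adjusted p = 0.0183) and not on light polysomes (0.0540). Srebf1 was at 29.1 and 26.8 FPKM on chow monosomes and at 77.2 and 46.8 on DDC monosomes, a change of 1.08 that was not called (adjusted p = 0.0634).

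In the fatty acid arm 3 of 9 members rose and 1 fell on monosomes, with 21% of all genes called higher and 15.9% lower. With the 4 chow libraries numbered 1 left out, 1 was called higher and 1 lower, and Gpam and Acaca lost their calls (adjusted p = 0.104 and 0.106). Gpam was at 0.411 and 0.762 FPKM in chow and 2.4 and 5.18 in DDC (1.54 ± 0.38, adjusted p = 0.00821), Fasn at 65.7 and 49.0 and then 164 and 309 (1.97 ± 0.56, adjusted p = 0.0159), and Acaca at 3.53 and 3.52 and then 7.22 and 9.0 (1.00 ± 0.29, adjusted p = 0.0174). Elovl6, which rose by 2.04 in cytoplasm, was at 10.1 and 8.74 and then 7.60 and 15.5, with a change of 0.19 (adjusted p = 0.758). Whether its cytoplasmic and monosome changes differ was not tested.

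Thrsp (chr7:97412938-97417730) fell on all 3 gradient pools. It was at 536 and 1138 FPKM on chow monosomes and at 132 and 158 on DDC monosomes (-2.43 ± 0.50, adjusted p = 0.00277). On light polysomes it was at 1162 and 1929 and then at 196 and 345 (-2.52 ± 0.50, adjusted p = 0.00282). On heavy polysomes it was at 3436 and 4979.6 and then at 690.1 and 713 (-2.56 ± 0.50, adjusted p = 0.00285). In each pool both DDC libraries were below both chow libraries, and each of these calls held under every alternative and with any one library of the comparison left out. In cytoplasm the levels were 308 and 769.7 in chow and 278 and 157 in DDC, so the chow libraries differed more from each other than chow library 1 did from DDC. The change there was -1.22 (adjusted p = 0.101), -0.56 against chow 1 alone and -1.88 against chow 2 alone.

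On light polysomes 2 of 17 sterol enzymes rose and none fell, with 16.6% of all genes called higher and 13.5% lower. They were Mvk, at 28.7 and 26 FPKM in chow and 65.4 and 56.4 in DDC (1.13 ± 0.35, adjusted p = 0.0314), and Pmvk, at 92.6 and 62.1 and then 117 and 214 (1.05 ± 0.32, adjusted p = 0.0275). The median of the arm was 0.48, against 0.01 over all genes. Ebp and Sc5d, enzymes late in the pathway, had the lowest values, -0.77 and -0.96, neither of them called (adjusted p = 0.124 and 0.0894). Without the 4 chow libraries numbered 1, 2 of 17 were called higher, Mvd and Sqle in place of Mvk and Pmvk, with 8.31% of all genes called higher.

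In the fatty acid arm 2 members rose and 2 fell on light polysomes, and without the 4 chow libraries numbered 1 there was 1 in each direction. With all libraries, 16.6% of all genes were called higher in that pool and 13.5% lower. Fasn was at 67.8 and 44.4 FPKM in chow and 164 and 235 in DDC (1.82 ± 0.56, adjusted p = 0.0274), and Acaca at 1.75 and 2.33 and then 4.71 and 5.42 (1.00 ± 0.29, adjusted p = 0.0210). Me1 (chr9:86581371-86695953) fell from 25.3 and 28.4 to 2.38 and 8.08 (-2.33 ± 0.64, adjusted p = 0.0171), beside the fall of Thrsp given above. The same gene was at 30.1 and 28.8 FPKM in chow cytoplasm and 24.1 and 17 in DDC cytoplasm. On monosomes it was at 23.7 and 28.6 and then at 6.02 and 8.42 (-1.73, adjusted p = 0.0524). Both pools had DDC below chow without overlap, and the light polysome calls of Me1 and Acaca were the ones lost without those libraries (adjusted p = 0.129 and 0.190).

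On heavy polysomes, the pool with the most ribosomes per message, few members were called: 1 of 17 sterol enzymes rose and 1 fell, 1 of 9 in the fatty acid arm rose and 1 fell, and none of 4 regulators was called, with 13.9% of all genes called higher and 10.9% lower. When libraries were scaled to equal summed FPKM, which moved the median change of all genes there from 0.02 to 0.28, 11 members rose and 1 fell. In that fit 2277 of 12241 genes were called higher and 508 lower. In cytoplasm, on monosomes and on light polysomes the same scaling moved the median of all genes to 0.18, 0.25 and 0.24. The median of the sterol arm was 0.53 and that of the fatty acid arm 0.68, against 0.02 over all genes.

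Idi1, the isomerase of isopentenyl diphosphate, rose from 0.665 and 1.46 FPKM to 3.57 and 4.01 (1.24 ± 0.40, adjusted p = 0.0400), a low level in both diets. Tm7sf2, a sterol reductase, fell from 538 and 533 to 394 and 155 (-1.11 ± 0.38, adjusted p = 0.0495). Gpam rose from 0.868 and 0.903 to 2.02 and 4.59 (1.124 ± 0.38, adjusted p = 0.0499). All 3 stood close to the threshold, and without the 4 chow libraries numbered 1 their adjusted p was 0.195, 0.219 and 0.218. Thrsp, given above, was the other member called.

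Other members had larger values on heavy polysomes without a call. Hmgcs1 was at 10.5 and 5.10 FPKM in chow and 22.4 and 28.9 in DDC, a change of 1.66 (SE 0.65; adjusted p = 0.0853). Fasn was at 219 and 82.0 and then at 294 and 352, a change of 1.26 (adjusted p = 0.124), and Dhcr7 at 23.3 and 21.4 and then at 42.6 and 49.2, a change of 1.00 (adjusted p = 0.122). In these 3 genes both DDC libraries exceeded both chow libraries. The count of members called was 1 without chow library 2 and 5 without chow library 1. With all 4 chow libraries numbered 1 left out it was also 5, with Hmgcs1, Mvd, Lss and Srebf2 called higher and Thrsp lower, while 9.15% of all genes were called higher and 6.38% lower.

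**Figure D2:**
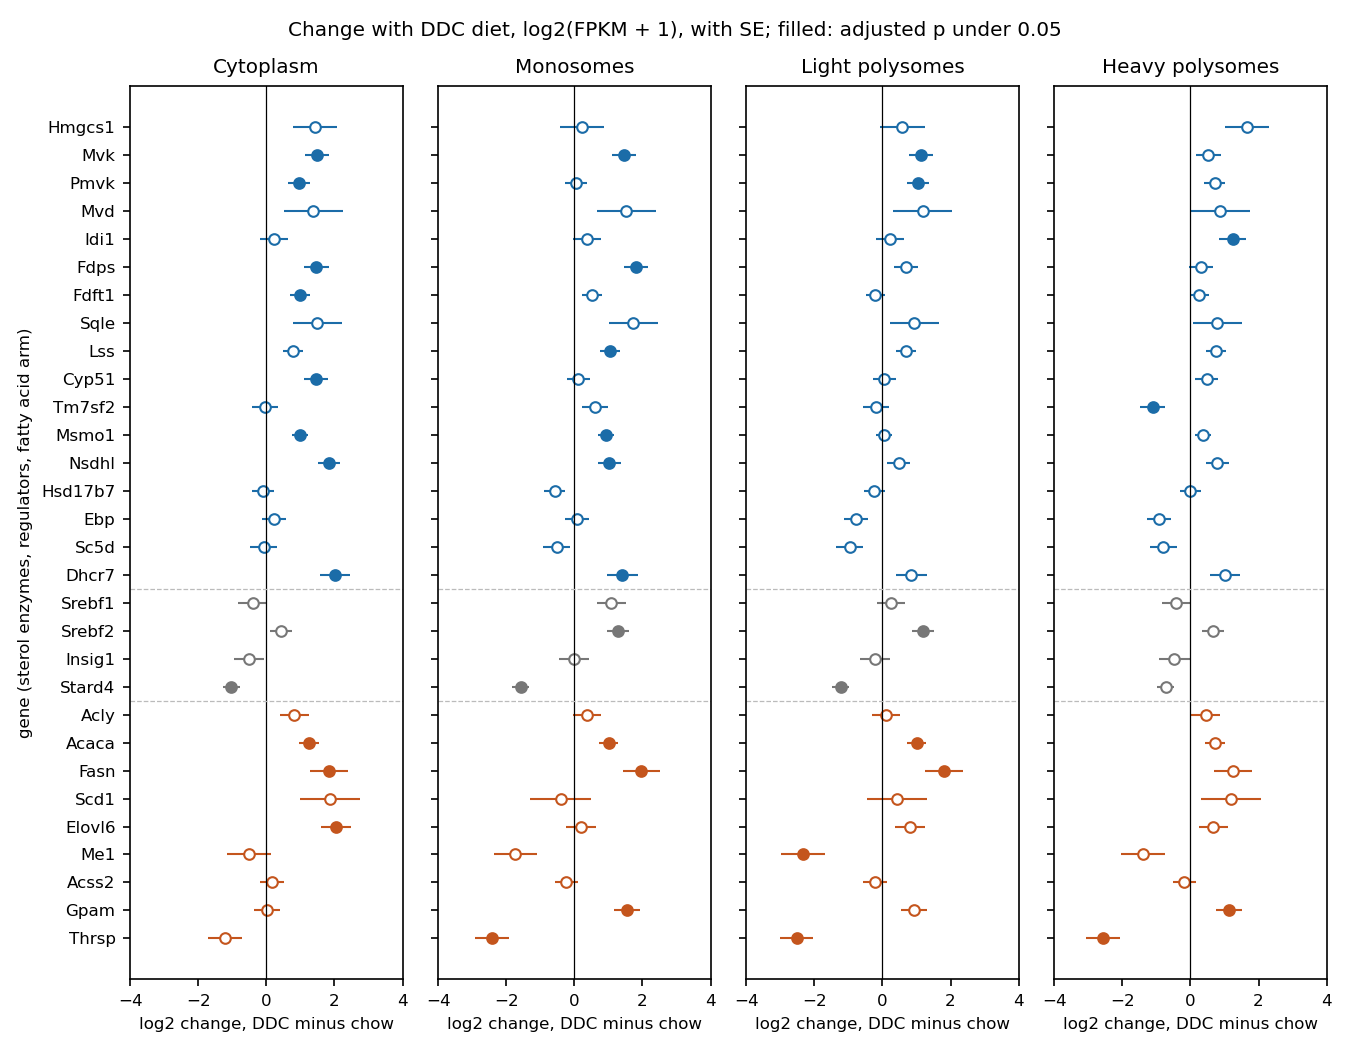
Change with DDC diet in log2(FPKM + 1) with its standard error for the 30 genes in each of the 4 RNA pools, with sterol enzymes in blue, regulators in grey, the fatty acid arm in orange and filled points for an adjusted p under 0.05. Of 17 sterol enzymes 8 are filled in cytoplasm, 6 on monosomes, 2 on light and 2 on heavy polysomes, and Thrsp lies between -2.43 and -2.56 on the 3 gradient pools.

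Over the 4 pools, 15 members rose in at least 1 pool (10 sterol enzymes, Srebf2 and 4 of the fatty acid arm), 4 fell in at least 1 (Tm7sf2, Stard4, Me1 and Thrsp), and none rose in one pool and fell in another. Of all genes tested, 28% rose in at least 1 pool and 24.9% fell in at least 1. The 11 without a call in any pool were 6 sterol enzymes (Hmgcs1, Mvd, Sqle, Hsd17b7, Ebp and Sc5d), Srebf1, Insig1, Acly, Scd1 and Acss2. Of 36 calls with diet among the members, 7 held under all alternatives and with each library left out in turn: Nsdhl in cytoplasm, Fdps, Srebf2 and Stard4 on monosomes, and Thrsp on all 3 gradient pools.

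The arms were compared by their median change. In cytoplasm the sterol arm stood at 1.00 and the fatty acid arm at 0.82, a difference of 0.18. On monosomes the medians were 0.61 and 0.19 (difference 0.42), on light polysomes 0.48 and 0.43 (0.05), and on heavy polysomes 0.53 and 0.68 (-0.15). The spread between libraries of this difference was 0.02 (SD) in cytoplasm and 0.37, 0.64 and 0.59 in the 3 gradient pools, so on light and heavy polysomes the difference was smaller than the spread and on monosomes it was of about its size. Even in cytoplasm it was -0.07 when chow library 2 was left out, so the sign of the small difference depended on that library. On heavy polysomes the sign also turned with the scale: it was 0.10 with a pseudocount of 5, 0.07 with equal summed FPKM and 0.23 by quantile normalization. The fatty acid arm had the wider range, with both the lowest value of each pool, that of Thrsp, and values of 1 or more for Fasn.

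The 2 DDC preparations gave different levels for the fatty acid arm in the gradient pools. On monosomes and heavy polysomes none of its 9 members was higher in DDC preparation B than in preparation C, and on light polysomes 1 was, while 46.5% to 49.6% of all genes were. The median difference, B minus C, was -0.83, -0.81 and -0.88 in monosomes, light polysomes and heavy polysomes. Scd1, for example, had 109 and 481 FPKM on monosomes, 56.6 and 238 on light polysomes and 55.9 and 242 on heavy polysomes. In DDC cytoplasm, whose libraries C2 and D2 carry other names, 8 of 9 were higher in library 1, where 53.6% of all genes were.

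**Figure D3:**
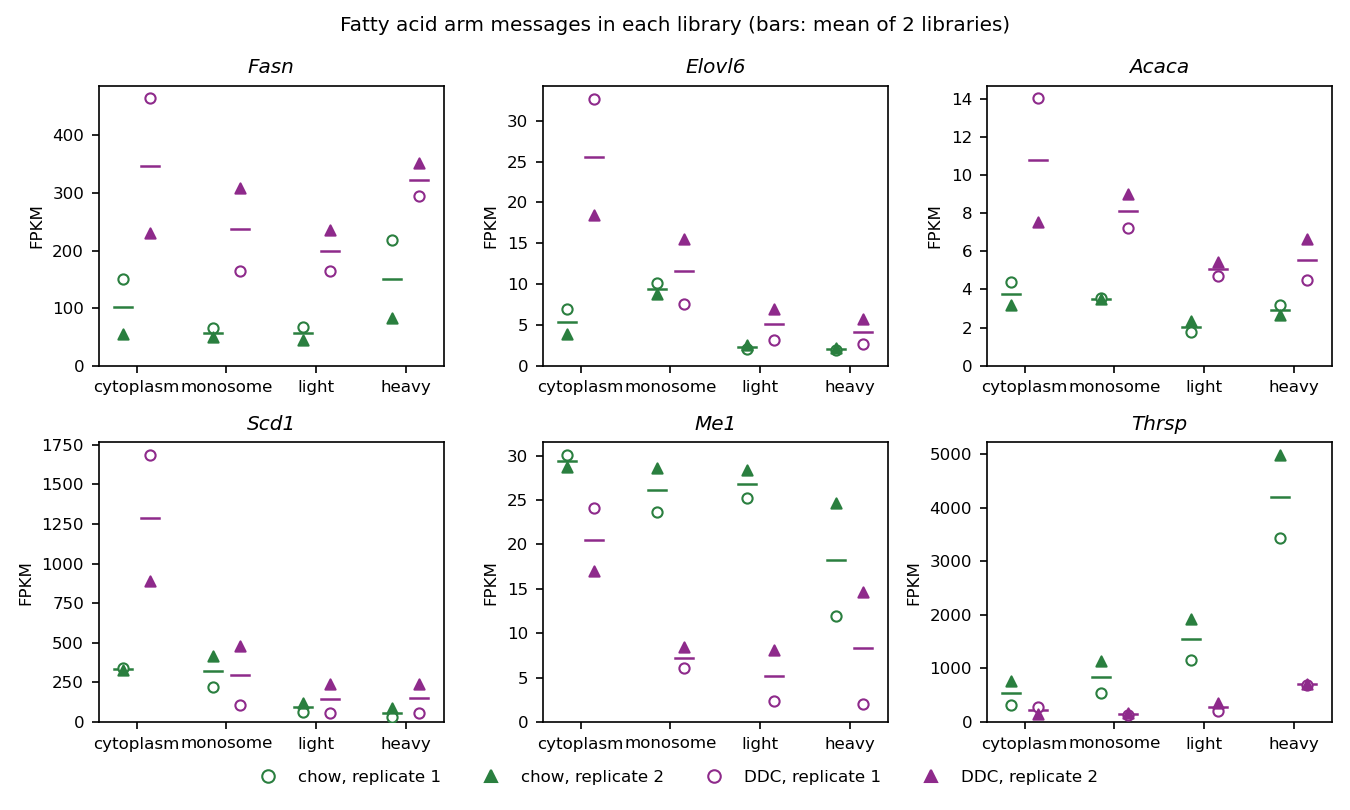
FPKM of 6 members of the fatty acid arm in each library by RNA pool, with chow in green, DDC in purple, circles for replicate 1, triangles for replicate 2 and bars for the mean of 2 libraries. Fasn, Elovl6 and Acaca are higher in DDC cytoplasm, DDC replicate 2 lies above DDC replicate 1 in the gradient pools, and Thrsp on heavy polysomes lies at 3436 and 4979.6 in chow and 690.1 and 713 in DDC.

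Placement on ribosomes was read as heavy polysomes minus monosomes within a diet. In chow 8 of 30 members were higher on heavy polysomes and 5 lower, with 23.7% of all genes called higher and 21.1% lower. With the preparation as a block and only the gradient libraries in the fit, 11 members were higher and 6 lower. Mvd, Fasn and Nsdhl were added above and Hmgcs1 below, while 24.8% and 20.6% of all genes were called. The chow values below are from the fit without the block. Scaled to equal summed FPKM, which moved the median of all genes from 0 to -0.36, the split was 5 higher and 7 lower. In that fit 1309 of 12250 genes were called higher and 3814 lower. By quantile normalization the split was 5 and 4, with 2237 of 11762 genes called higher and 2153 lower. Without the chow libraries numbered 1, which left 1 library in each chow group, fewer members and fewer of all genes were called.

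Of 17 sterol enzymes in chow, 6 were higher on heavy polysomes and 2 lower. Fdps went from 70.5 and 47.4 FPKM on monosomes to 671 and 459 on heavy polysomes (3.24 ± 0.36, adjusted p = 3.47e-05), and Pmvk from 51.6 and 68.3 to 257 and 184 (1.86 ± 0.32, adjusted p = 0.000657). Tm7sf2 (2.00), Ebp (1.72), Mvk (1.58) and Fdft1 (0.97) were also higher there. Cyp51 fell from 30.9 and 30.03 on monosomes to 12.4 and 12.6 on heavy polysomes (-1.23 ± 0.34, adjusted p = 0.0111), and Hsd17b7 was lower by the same test (-0.93, adjusted p = 0.0279). Cyp51 on heavy polysomes was thus at a similar level in both chow libraries and below its monosome level in both.

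In the fatty acid arm in chow, Thrsp was higher on heavy polysomes (2.404 ± 0.50, adjusted p = 0.00203), while Elovl6 and Scd1 were lower. Elovl6 was at 10.1 and 8.74 FPKM on monosomes and at 1.98 and 2.22 on heavy polysomes (-1.75 ± 0.44, adjusted p = 0.00618), and Scd1 at 222 and 416 and then at 29.95 and 85.0 (-2.56 ± 0.88, adjusted p = 0.0330). Of the regulators Srebf1 was higher (1.56, adjusted p = 0.00992) and Stard4 lower (-0.71, adjusted p = 0.0353).

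In DDC 3 members were higher on heavy polysomes, Pmvk (2.51 ± 0.32, adjusted p = 0.000202), Fdps (1.74 ± 0.36, 0.00334) and Thrsp (2.27 ± 0.50, 0.00460), and 1 was lower, Elovl6 (-1.27 ± 0.44, 0.0423), with 18.2% of all genes called higher and 14.5% lower. The DDC gradient libraries come from preparations B and C in all 3 pools. With the preparation as a block and only the gradient libraries in the fit, 5 members were higher and 4 lower, with Mvd and Fdft1 added above and Cyp51, Insig1 and Scd1 below, while 19.1% and 14.4% of all genes were called. Scaled to equal summed FPKM, which moved the median of all genes to -0.37, 3 were higher and 5 lower. In that fit 965 of 12250 genes were called higher and 3212 lower. By quantile normalization 2 members were higher and 4 lower, with 1746 of 11764 genes called higher and 1657 lower. Pmvk, Fdps and Thrsp were at 391 and 325, 622 and 756, and 690.1 and 713 FPKM on DDC heavy polysomes.

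Placement of the members followed the length of the leading transcript. Spearman's rho over the 30 members was -0.73 in chow and -0.66 in DDC, against -0.24 and -0.32 over all genes tested. The points share their libraries, and FPKM are divided by length. Fasn counts as short here, since its leading model has 976 bases. In chow, 6 of the 9 members with a leading transcript under 2000 bases were called higher and none lower, with a median of 1.86. Among all genes with such transcripts 33% were called higher and 14.6% lower, and the median was 0.33. Of the 21 members with longer transcripts 2 were higher and 5 lower, with a median of 0.15, against 15.1% and 27.1% of all such genes and a median of -0.20. In DDC 3 of the 9 short members were higher and none lower (median 0.71), against 27.6% and 9.19% of all short genes (median 0.35). Among the 21 long members none was higher and 1 lower, against 9.38% and 19.4% of all long genes. Only their median of -0.16 was near that of all long genes (-0.20).

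**Figure D4:**
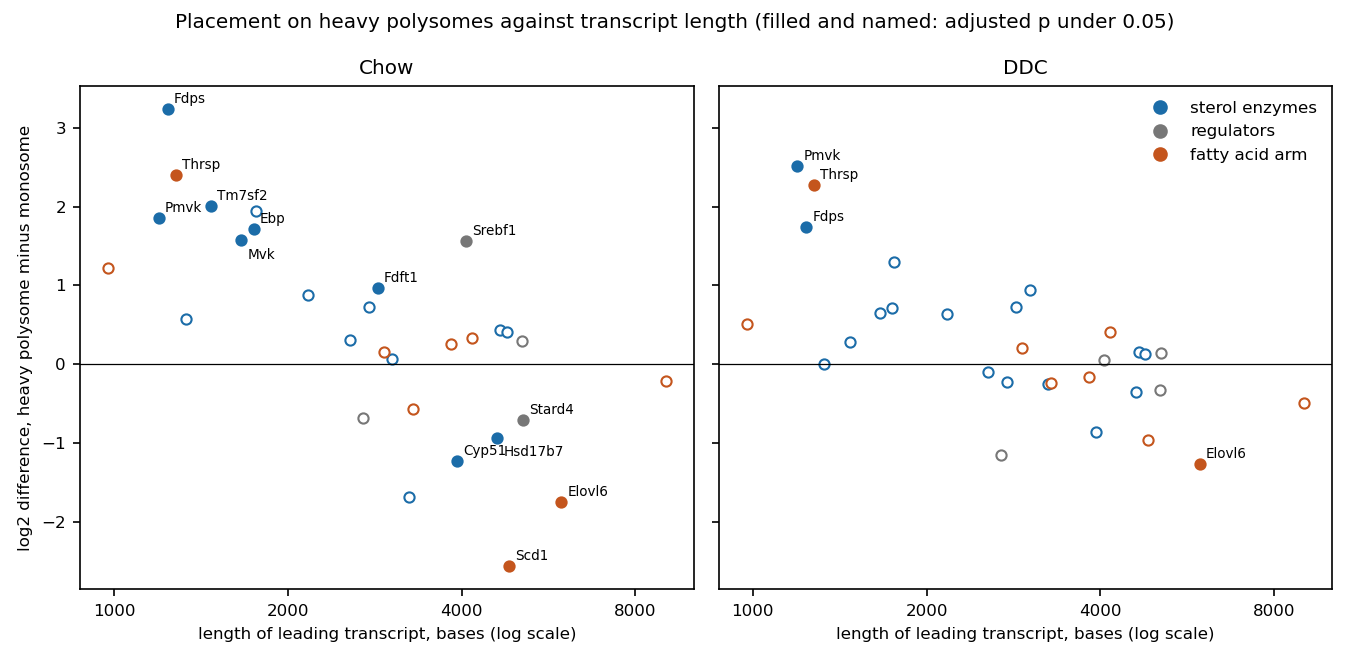
Difference between heavy polysomes and monosomes in log2(FPKM + 1) against the length of the leading transcript in bases (log scale) for the 30 genes, in chow and in DDC, with filled and named points for an adjusted p under 0.05. Short messages such as Fdps, Pmvk and Thrsp lie above 0 in both diets and Elovl6 lies below 0 in both.

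The effect of diet on placement was called for no member in the fit of all 16 libraries. In the test of whether the heavy polysome to monosome difference itself differed between diets, none of the 30 was called by limma, 4 had an unadjusted p under 0.05, and 0.996% and 0.902% of all genes were called higher and lower. The lowest adjusted p was that of Tm7sf2, whose placement value was 2.00 in chow and 0.28 in DDC, a difference of -1.72 ± 0.53 (adjusted p = 0.0994). It was called when DDC heavy polysome library 1 was left out. Fdps followed with -1.50 ± 0.51 (adjusted p = 0.123). With the preparation as a block and only the gradient libraries in the fit, 1 of the 30 was called, Scd1, at 1.60 ± 0.31 (adjusted p = 0.0447), against 1.60 ± 1.25 (adjusted p = 0.509) without the block, and 0.647% and 0.996% of all genes were called higher and lower. Its heavy polysome level was below its monosome level in each of the 4 preparations, from 222 to 29.95 and 416 to 85.0 FPKM in chow and from 109 to 55.9 and 481 to 242 in DDC, and by less in both DDC preparations. For the difference between heavy polysomes and cytoplasm none was called either, 4 had an unadjusted p under 0.05, and 0.0596% and 0.0426% of all genes were called higher and lower. In that comparison 23 of 30 values were negative, with a median of -0.59 over the members and -0.02 over all genes. Scaled to equal summed FPKM the median over all genes was 0.11. Elovl6 had -1.37 ± 0.62 and Fdps -1.17 ± 0.51, with adjusted p of 0.418 and 0.412. With 2 libraries a group, these standard errors limit what a difference between diets could show.

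Other genes of the same pathways were counted from lists chosen by name. Of 10 further genes of sterol supply and its control, among them Acat2, Tmem97, Scap, Insig2, Mbtps1 and Mbtps2, 2 rose and none fell in cytoplasm (12.7% and 9.68% of all genes) and none was called on heavy polysomes (13.9% and 10.9%). Tmem97, a sterol-regulated membrane protein, was at 36.3 and 41.1 FPKM in chow cytoplasm and 129 and 87.0 in DDC (1.44 ± 0.38, adjusted p = 0.0193). The groups did not overlap, and both chow libraries were close.

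Of 12 further genes of fatty acid and triglyceride synthesis, 2 rose and 2 fell in cytoplasm, and 1 rose and 4 fell on heavy polysomes. Of all genes, 12.7% and 9.68% did so in cytoplasm and 13.9% and 10.9% on heavy polysomes. The rises were those of Scd2 and Pnpla3 in cytoplasm and of Scd2 on heavy polysomes. Both genes passed the filter only through DDC, so these calls carry no weight. Scd2, a desaturase low in adult hepatocytes, was at 0.246 and 0.251 FPKM in chow cytoplasm and 11.3 and 10.1 in DDC (3.22 ± 0.48, adjusted p = 0.000763), while on heavy polysomes both chow values were 0 and the DDC values 1.07 and 3.66. The chow level of Scd2 is under the filter of 1 FPKM, so it was tested only through its DDC level. Mlxipl, which encodes the carbohydrate-response factor ChREBP, fell from 28.6 and 23.2 to 6.07 and 4.09 in cytoplasm (-2.16 ± 0.30, adjusted p = 0.000549) and by 1.44 on heavy polysomes (adjusted p = 0.00484). Dgat2, which completes triglycerides, fell from 179.5 and 211 to 95.8 and 73.6 in cytoplasm (-1.20 ± 0.24, adjusted p = 0.00413) and by 1.94 on heavy polysomes (adjusted p = 0.000151). Pnpla3, a lipid droplet hydrolase, rose in cytoplasm by 1.70 (0.991 and 0.0540, then 4.08 and 3.37; adjusted p = 0.00813). Like Scd2, it was under 1 FPKM in every chow library and was tested only through its DDC level.

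Of 7 genes of sterol export and its LXR control, 1 rose and 1 fell in cytoplasm and on heavy polysomes, near the shares of all genes just given. Abcg1, a cholesterol exporter prominent in macrophages, rose from 0.366 and 0.565 FPKM to 2.86 and 4.64 in cytoplasm (1.67 ± 0.35, adjusted p = 0.00575) and by 1.58 on heavy polysomes (adjusted p = 0.00641). Abcg1 too was under 1 FPKM in every chow library and entered the test only through DDC. It was the gene that rose in both pools, so the rises of this list carry no weight. Abcg8, which with Abcg5 moves cholesterol into bile, fell from 12 and 22.4 to 6.01 and 4.18 (-1.53 ± 0.36, adjusted p = 0.00992) and by 1.19 on heavy polysomes (adjusted p = 0.0292). The summed macrophage markers were higher in the same libraries, as given above, and their part in the change of Abcg1 was not tested.

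The sums over transcripts hide unlike isoforms in some members. In 17 of the 30, 1 transcript held at least 90% of the gene's FPKM, and in the other 13 it held less, down to 54.5% in Idi1. For Fasn the sum was carried by short models: Fasn-203 (976 bases) held 76% and Fasn-202 (762 bases) 14.7%, while Fasn-201 (10050 bases) held 8.62%. The mean log2 ratio of Fasn-201, DDC over chow, was 1.35 in cytoplasm, 0.94 on monosomes, 1.08 on light polysomes and 0.51 on heavy polysomes, and that of Fasn-203 was 2.03, 1.94, 1.64 and 1.21. Both models were thus higher on average in DDC in every pool, and the short model had the larger value in each.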

How the data were processed

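Polyadenylated RNA of FVB mouse hepatocytes was measured in 16 libraries, 2 in each of 8 groups. Per the submitters' processing notes, the build was GRCm38 (mm10) and the tools were STAR 2.4.2a, bcl2fastq 2.17.1.14, Picard 1.119, Trimmomatic and Cuffnorm, and the authors deposited FPKM per transcript. Although the file is named for counts, the values are not whole, so the tests for FPKM were used. The options of Cuffnorm are not given in the sources used here, and FPKM give no sequenced depth, so precision is judged from the spread between libraries.

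With GENCODE M21, 116728 of 117592 transcripts matched a gene (99.27%), and FPKM were summed over 48158 genes. The test took the 11790 genes that reached 1 FPKM in 2 or more libraries. Where both libraries of a group were at 0 and another library reached 100 FPKM, the gene was left out of that group, which touched 49 genes and no member. Values were log2(FPKM + 1), fitted with limma 3.58.1 in R 4.3.3 (8 group means, variance trend, 8 residual and 3.905 prior degrees of freedom) with Benjamini-Hochberg adjustment over all genes tested. The fit was run on simulated data with independent noise in each library, which does not cover the correlations between pools given below. The 8 comparisons were the diets in each pool, heavy polysomes against monosomes within chow and within DDC, and the effect of diet on placement against monosomes and against cytoplasm.

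The members and gene lists were chosen with earlier results of these data known. Members called were named, in full for the 4 with the lowest p of an arm where more were called in cytoplasm or on heavy polysomes, and others by range. From the companion lists up to 4 genes called in cytoplasm or on heavy polysomes were named by lowest p, not all of them reported here. Per the labels, replicate numbers pair all 4 pools of a chow preparation and the 3 gradient pools of a DDC preparation, but not DDC cytoplasm (other preparations) with the DDC gradients, nor the diets: replicate deviations correlated by 0.357 to 0.749 within chow, 0.305 to 0.365 between DDC gradient pools, -0.0499 to 0.161 between DDC cytoplasm and gradient pools and -0.0938 to 0.0702 between diets. Alternatives were other pseudocounts, no filter, other scalings, the leading transcript alone, the replicate block, the block in gradient libraries alone (chosen after seeing the data), fewer groups and fewer libraries. In the comparisons of diet the replicate block joined chow and DDC libraries of the same number, although the numbers do not pair the diets. The main fit had no block and treated the pools of a preparation as independent.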

Additional observations from a re-analysis of the deposited data

Results flagged for a closer look

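Fads2, a desaturase of polyunsaturated fatty acids and no member of the 30, had a placement on heavy polysomes against monosomes that differed between the diets: the difference was -2.31 by the interaction test of limma (Benjamini-Hochberg adjusted p = 0.0183). Its FPKM were 47.9 and 51.7 on chow monosomes, 304 and 270 on chow heavy polysomes, 105 and 195 on DDC monosomes and 155 and 173 on DDC heavy polysomes. The chow heavy polysome libraries were above both DDC heavy polysome libraries, and the DDC monosome libraries were above both chow monosome libraries.

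Tm7sf2 had values of opposite sign in different pools. By limma its change with DDC was 0.61 on monosomes (adjusted p = 0.219), where both DDC libraries (175 and 237 FPKM) were above both chow libraries (108 and 163), and -0.19 on light polysomes (adjusted p = 0.745), where both DDC libraries (184 and 182) were below both chow libraries (187 and 232). This difference between the pools was not tested. Against the same monosome change of 0.61, its change on heavy polysomes was -1.11 (538 and 533 FPKM in chow, 394 and 155 in DDC). The difference of those changes was tested and was not called by limma (-1.72, adjusted p = 0.0994).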

How the results depend on the processing

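Among the 53 calls of members in the 6 comparisons within a pool or within a diet, none changed direction under any alternative. Outside the members, the placement of Dgat2 in chow had the opposite sign by quantile normalization (-0.054, adjusted p = 0.871) from the 1.01 reported; the cause was not tested.

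The number of members called moved by more than 1.5 times as follows. In cytoplasm it was 12, and 6 without the 4 chow libraries numbered 1. On monosomes it was 12, and 7 with only the groups compared. On light polysomes it was 8, then 4 without the filter and 5 without the 4 chow libraries numbered 1. On heavy polysomes it was 4, then 1 with a pseudocount of 5, without the filter or with only the groups compared, 2 by quantile normalization and 12 with equal summed FPKM. For placement in chow it was 13, then 6 with only the groups compared and 3 without the 4 chow libraries numbered 1. For placement in DDC it was 4, then 8 with equal summed FPKM and 2 with only the groups compared. For the effect of diet on placement against monosomes it was 0, and 1 with the leading transcript alone (Ebp). With 1 cytoplasmic, monosome, light or heavy polysome library left out, the counts ran from 2 to 12, 5 to 12, 2 to 6 and 1 to 5. For placement they ran from 9 to 14 in chow and 3 to 6 in DDC, and from 0 to 1 for the effect of diet against monosomes. A group left with 1 library is assumed to vary like the others. The cause of these moves was not tested, apart from the smaller number of libraries in those fits.

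With the replicate block over all pools, which in DDC joins cytoplasm and gradients of different preparations, the count for placement in DDC was 8, and 7 with the block as a random effect. With the replicate block in the gradient libraries only, an alternative chosen after seeing the data, it was 9, and 1 for the effect of diet on placement against monosomes. Other counts of calls under a block moved by no more than 1.5 times.

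The difference between the arms, 0.18 in cytoplasm, was 0.20 with a pseudocount of 5, 0.30 by quantile normalization and 0.42 with the leading transcript alone. On monosomes it was 0.42, and 0.83 with the leading transcript. On heavy polysomes it was -0.15, then 0.46 without the 4 chow libraries numbered 1, 0.10 with a pseudocount of 5, 0.069 with equal summed FPKM and 0.23 by quantile normalization. On light polysomes it was 0.05, and -0.0996 by quantile normalization and -0.0019 with a pseudocount of 5. With 1 library left out it ran from -0.0735 to 0.206 in cytoplasm, 0.17 to 0.85 on monosomes, -0.85 to 0.57 on light polysomes and -0.54 to 0.46 on heavy polysomes. With 2 libraries a group, replicate number limits the precision of every value here.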
